A study of Mus musculus with 22 samples.

Results

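Laminins, nidogens and perlecan form the non-collagen core of the basement membrane, and they were followed here in the hippocampus of mice that carry a proNGF transgene under a promoter used for expression in neurons. The set was given as a list of 10 genes of these families (the laminin chains Lama1, Lama2, Lama4, Lama5, Lamb1, Lamb2 and Lamc1, the nidogens Nid1 and Nid2, and Hspg2, which encodes perlecan), out of 21154 genes that could be named on the array. Probes were matched through the RefSeq transcript that the scanner files give, which yielded 14 of 55681 probes. The rule that matches probes to them uses no measured level. TgproNGF#3 mice carry a mouse pre-proNGF cDNA whose furin site was made resistant to cleavage, followed by an IRES and EGFP, under the Thy1.2 promoter, and belong to 1 founder line on a C57Bl/6xDBA/2 background. The controls were wild-type (WT) mice, and neither genotype was treated. Total RNA came from the hippocampus of the right hemisphere, 1 mouse per array, and each genotype was represented by 4 mice at 1 month, by 4 at 3 months and by 3 at 12 months. The labels give males for the younger ages and females for 12 months, and the arrays of an age shared a slide that held no other age, so that effects of age, of sex and of the slide cannot be told apart.

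A laminin is a trimer of 1 alpha, 1 beta and 1 gamma chain, secreted and then assembled into a sheet on the cell surface. Nidogens bridge this sheet to the network of type IV collagen, and perlecan is a large heparan sulfate proteoglycan bound to both. In the brain such sheets lie under the pia, around vessels and below the epithelium of the choroid plexus, and the alpha chain differs with the place: Lama1 encodes a chain of the pial basement membrane, Lama4 and Lama5 encode chains laid down by endothelial cells, and the Lama2 chain is found where astrocyte endfeet meet vessels. Lamb1, Lamb2 and Lamc1 encode the beta and gamma chains that these trimers share.

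Promoter windows were available for 6 of the 10 members, each covering the 250 bases before the annotated start in RefSeq (GRCm38.p6). Those of Nid1, Hspg2 and Lama2 are shown because Nid1 was called at 12 months and Hspg2 and Lama2 had an unadjusted p below 0.05 at 3 months, in opposite directions. The Nid1 window lies at chr13:13437352-13437601 (plus strand), the Hspg2 window at chr4:137468553-137468802 (plus strand) and the Lama2 window at chr10:27616943-27617192 (minus strand). They are written 5′ to 3′ along the gene, and capitals mark each GC box (GGGCGG, or CCGCCC on the other strand).
Nid1: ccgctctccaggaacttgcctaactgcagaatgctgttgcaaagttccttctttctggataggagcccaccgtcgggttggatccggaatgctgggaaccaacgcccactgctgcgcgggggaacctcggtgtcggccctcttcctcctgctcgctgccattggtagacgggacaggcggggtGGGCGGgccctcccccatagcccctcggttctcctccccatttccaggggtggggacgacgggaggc
Hspg2: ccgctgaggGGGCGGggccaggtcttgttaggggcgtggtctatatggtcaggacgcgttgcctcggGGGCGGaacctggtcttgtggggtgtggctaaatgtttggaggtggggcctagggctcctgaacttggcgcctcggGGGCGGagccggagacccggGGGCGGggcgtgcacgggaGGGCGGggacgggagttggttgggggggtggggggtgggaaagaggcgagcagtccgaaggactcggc
Lama2: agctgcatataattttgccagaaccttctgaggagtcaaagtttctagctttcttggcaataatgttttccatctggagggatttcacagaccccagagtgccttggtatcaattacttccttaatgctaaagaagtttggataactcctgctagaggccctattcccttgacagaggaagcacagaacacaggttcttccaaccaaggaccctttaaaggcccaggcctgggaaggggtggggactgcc

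The Nid1 window holds 1 GC box, 67 bases before the start, and the Hspg2 window 5, between 68 and 241 bases before it, while the Lama2 window holds 0. Of the 6 windows 4 hold at least 1 GC box (Lama5, Lamb1, Nid1 and Hspg2), against 32.7% of the 32851 windows in the table. The letters TATAAA or TTTATA occur in 0 of the 6 windows, against 12.4% of all. The GC content was 64.4% for Nid1, 70% for Hspg2 and 47.2% for Lama2, where the median window has 52.4%. These matches describe letters only.

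Levels are log2 intensities from which the array's 75th percentile over the spots kept was subtracted, so that 0 is that percentile, and Log2 FC is the mean level of TgproNGF#3 mice minus that of WT mice. Between 57.6% and 80.27% of the spots of an array were well above background, 0 were saturated, and arrays of a group correlated by 0.973 to 0.995. Each member has a probe, its brightest, with a value on all 22 arrays, and this probe stands for the gene. Of the 4 further probes, the second Lama2 probe went the same way at each age and 1 dim Nid1 probe, with 2 values per group at 1 month, went the other way (Log2 FC = -0.22). The tissue label was checked only for the presence of 9 hippocampal marker genes, with no other tissue measured for comparison. All were measured at each age, with a mean level of 0.83 to 1.82 over the arrays. At 3 months this mean was lower in every TgproNGF#3 mouse (0.83 to 0.962) than in every WT mouse (1.01 to 1.425). The genotypes were taken from the labels. The study's rule was used for calls, an unadjusted limma p below 0.05 together with a change of more than 2-fold (1 on the log2 scale) in either direction, and p-values adjusted after Benjamini-Hochberg over all probes tested stand beside the calls. The hippocampus was measured whole, so fewer cells of a type and less RNA per cell cannot be told apart.

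**Figure D1:**
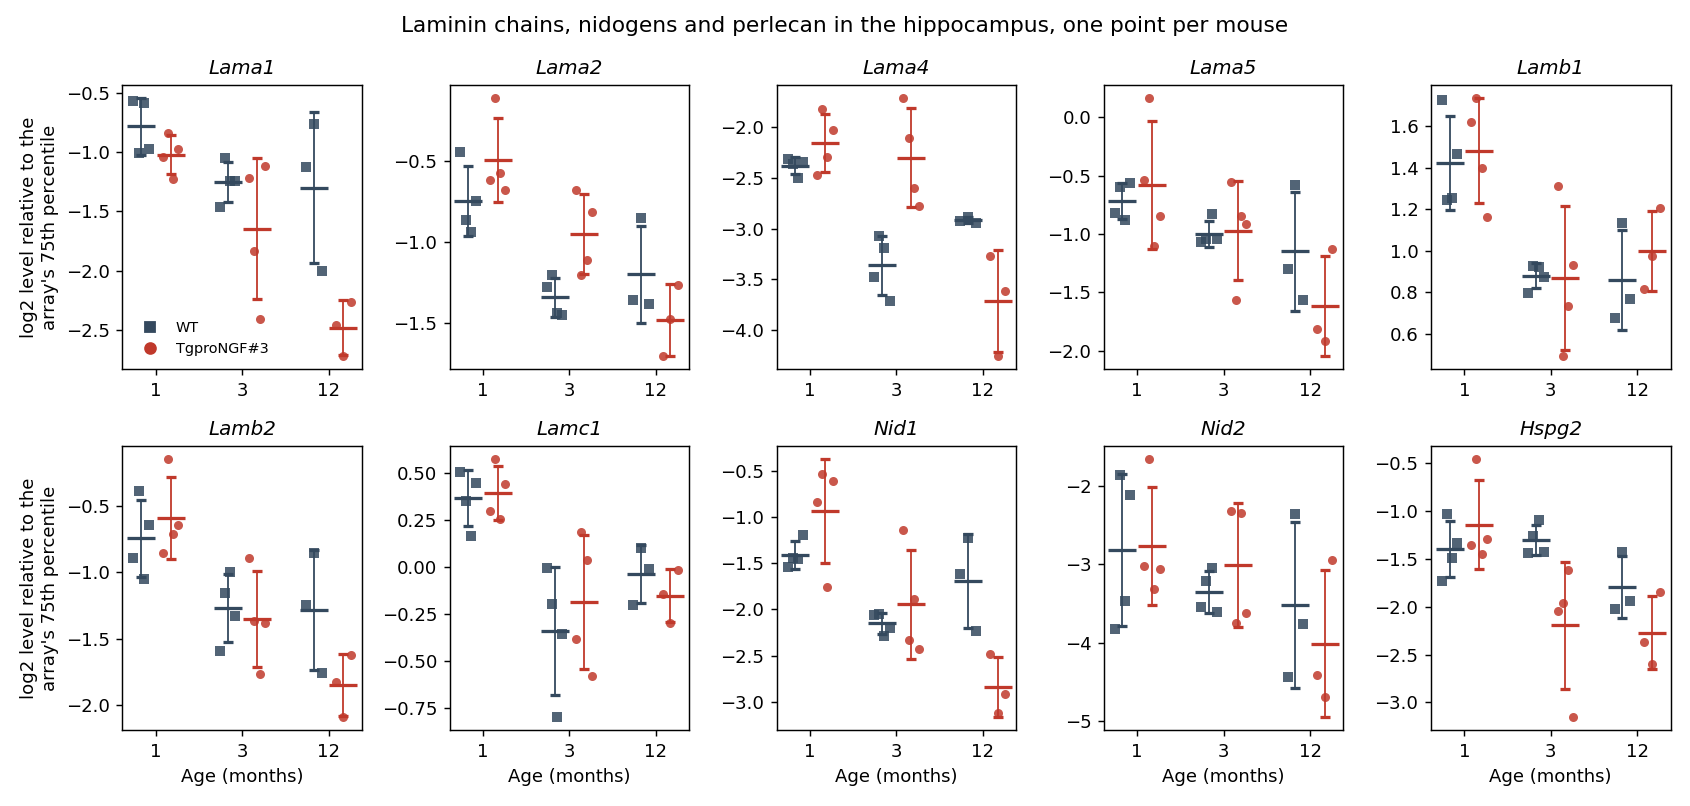
Levels of the 10 member genes on each of the 22 arrays (vertical axis, log2 relative to the array's 75th percentile; horizontal axis, age in months), with 1 point per mouse and the mean and SD of each group as bars. The Lama4 points of TgproNGF#3 mice lie above the WT points at 3 months and below them at 12 months.

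At 1 month no member was called. The genotype difference was positive for 9 of 10 members and negative for Lama1 alone, and the median Log2 FC over the members was 0.146, where 11555 of all 17183 named genes were also higher and their median was 0.072. Over all probes the share called was 0.242% up-regulated and 0.328% down-regulated, and 3.47% had an unadjusted p below 0.05, against 0 of the 10 members. The member farthest from 0 was Nid1, which encodes nidogen-1. Its level was -0.83, -0.53, -1.76 and -0.60 in TgproNGF#3 mice and -1.54, -1.44, -1.46 and -1.19 in WT mice. TgproNGF#3 replicate 3 lay below all WT mice and the other 3 lay above them, so the groups overlapped. Its Log2 FC was 0.48 ± 0.266 (SE, limma p = 0.104, adjusted p = 1, exact permutation p = 0.143). Without that replicate it was 0.75, with an unadjusted p below 0.05. Lama1 stood at -1.04, -0.84, -1.23 and -0.97 in TgproNGF#3 mice and at -0.57, -1.01, -0.58 and -0.97 in WT mice. The groups overlapped (Log2 FC = -0.24 ± 0.179 SE, limma p = 0.215, adjusted p = 1, exact permutation p = 0.2). The other 8 members had a Log2 FC between 0.03 (Lamc1) and 0.26 (Lama2 and Hspg2). On the slide of this age the WT arrays occupied columns 1 and 2 and the TgproNGF#3 arrays columns 3 and 4, so genotype and array column cannot be told apart.

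At 3 months Lama4 was up-regulated in TgproNGF#3 mice, the only member called, and the pial chain Lama1 did not pass the test. Hspg2 was 1.86-fold lower with groups that did not overlap, short of the 2-fold threshold. The beta and gamma chains stayed within 0.16 of 0. This stood against a table in which many probes differed: 0.643% of the probes tested were called up-regulated and 6.12% down-regulated, 27.2% had an unadjusted p below 0.05, and 5.78% had TgproNGF#3 values all above the WT values and 14.6% all below. Among the members 3 of 10 had an unadjusted p below 0.05, a share close to that of all probes.

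The level of Lama4, a laminin alpha chain of endothelial basement membranes, was -1.71, -2.11, -2.60 and -2.78 in TgproNGF#3 mice and -3.47, -3.07, -3.19 and -3.71 in WT mice at 3 months. Every TgproNGF#3 mouse lay above every WT mouse. This gave a Log2 FC of 1.06 ± 0.251 (SE), a 2.09-fold difference (limma p = 0.00196, adjusted p = 0.0336, two-sided exact permutation p = 0.0286, the smallest that 4 mice against 4 allow). Of all probes 1.57% passed the adjusted threshold in this direction. The Log2 FC fell below 1 without TgproNGF#3 replicate 1 (0.87), without TgproNGF#3 replicate 2 (0.998), without WT replicate 4 (0.94) and under a normexp background correction (0.82). The unadjusted p stayed below 0.05 in each of these, while the adjusted p ran from 0.0187 to 0.108 with single mice left out and from 0.00266 to 0.0666 over the other processing tried.

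Perlecan went the other way at 3 months. The Hspg2 level was -2.05, -1.96, -1.61 and -3.15 in TgproNGF#3 mice and -1.43, -1.26, -1.09 and -1.42 in WT mice. All TgproNGF#3 mice were below all WT mice, and replicate 4 was farthest from the rest. The Log2 FC was -0.89 ± 0.296 (SE, limma p = 0.0137, adjusted p = 0.0917, exact permutation p = 0.0286). It was -0.57 without TgproNGF#3 replicate 4 and -1.09, past the fold threshold, without TgproNGF#3 replicate 3, and the unadjusted p stayed below 0.05 with each mouse left out.

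Lama2, the chain of the endfoot side of the vessel wall, had levels of -0.68, -1.20, -1.11 and -0.81 in TgproNGF#3 mice and -1.28, -1.20, -1.44 and -1.45 in WT mice at 3 months. The groups met near -1.20, where TgproNGF#3 replicate 2 and WT replicate 2 coincide. The Log2 FC was 0.39 ± 0.157 (SE, limma p = 0.0327, adjusted p = 0.147, exact permutation p = 0.0571), and the unadjusted p rose above 0.05 when any of 5 single mice was left out, reaching 0.0884 without WT replicate 4. The pial chain Lama1 read -1.22, -1.84, -2.40 and -1.12 in TgproNGF#3 mice against -1.46, -1.05, -1.25 and -1.25 in WT mice. TgproNGF#3 replicates 2 and 3 were below all WT mice, the other TgproNGF#3 mice were among them, and the Log2 FC was -0.39 ± 0.271 (SE, adjusted p = 0.378).

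Of the remaining members at 3 months, Nid2 had a Log2 FC of 0.35 and Nid1 of 0.21, and the chains Lama5, Lamb1, Lamb2 and Lamc1 lay between -0.08 and 0.16, none with an unadjusted p below 0.05. In total 6 members were higher and 4 lower, with a median of 0.091. Over all named genes 6893 of 15724 were higher and the median was -0.055. The SD among TgproNGF#3 mice was larger than among WT mice for 10 of 10 members at this age, for 7 at 1 month and for 2 at 12 months.

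**Figure D2:**
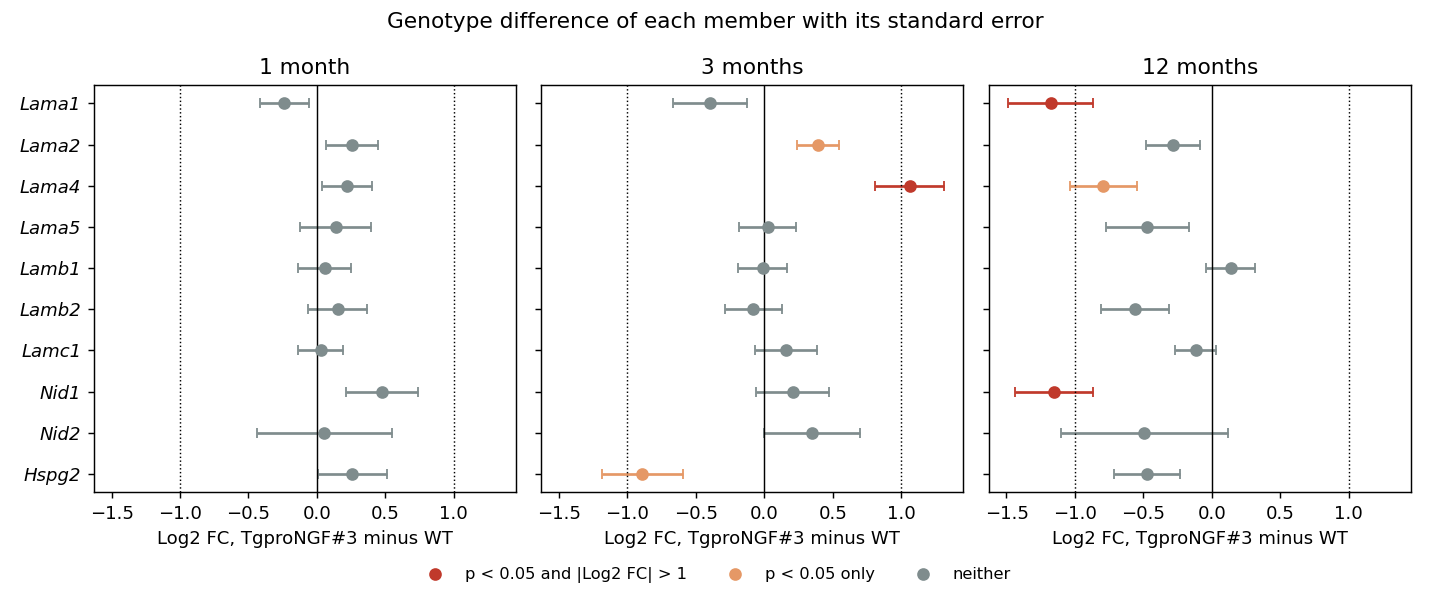
Log2 FC of TgproNGF#3 over WT for each member (horizontal axis, with the standard error of the limma fit as bars) at 1, 3 and 12 months, coloured by whether the gene was called, had an unadjusted p below 0.05 without passing the fold threshold (dotted lines), or neither. Lama4 was called at 3 months (1.06), Lama1 (-1.18) and Nid1 (-1.15) at 12 months.

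At 12 months 9 of 10 members were lower in TgproNGF#3 mice and Lamb1 alone was higher. Lama1 and Nid1 were called down-regulated, by 2.26-fold and 2.22-fold, and Lama4, up-regulated at 3 months, was 1.73-fold lower. The median Log2 FC over the members was -0.484, where 6278 of all 15681 named genes were lower and their median was 0.062. Over all probes the share called was 0.992% down-regulated and 0.311% up-regulated, 9.05% had an unadjusted p below 0.05, and in 8.12% all TgproNGF#3 values were below all WT values (in 7.42% all above). Among the members the corresponding counts were 2 called down-regulated, 3 with an unadjusted p below 0.05 and 3 with all TgproNGF#3 values below. No probe of the array passed the adjusted threshold at this age (smallest adjusted p = 0.177, with 3084 probes with an unadjusted p below 0.05), and 3 mice against 3 cannot give a two-sided exact p below 0.1.

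The Lama1 level was -2.46, -2.72 and -2.26 in TgproNGF#3 mice and -1.13, -0.77 and -2.01 in WT mice. All TgproNGF#3 mice were below all WT mice, and WT replicate 3 was the WT mouse nearest to them. The Log2 FC was -1.18 ± 0.311 (SE, limma p = 0.00603, adjusted p = 0.549, exact permutation p = 0.1). Nid1, the linker between laminin and type IV collagen, also had all TgproNGF#3 mice below all WT mice: -2.48, -3.13 and -2.92 in TgproNGF#3 mice and -1.61, -1.22 and -2.24 in WT mice. WT replicate 3 was again the WT mouse nearest to the TgproNGF#3 mice (Log2 FC = -1.15 ± 0.284 SE, limma p = 0.00421, adjusted p = 0.549, exact permutation p = 0.1).

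Position on the slide moved with these values. All 3 TgproNGF#3 arrays and the array of WT replicate 3 lay in row 2 of the slide, and WT replicates 1 and 2 in row 1. With the array row as a block, the Log2 FC was -0.47 for Lama1 and -0.60 for Nid1, and neither kept an unadjusted p below 0.05. Without WT replicate 3 the values were -1.53 for Lama1 (adjusted p = 0.035) and -1.43 for Nid1 (adjusted p = 0.0661), the lowest adjusted p of each when single mice were left out (the highest was 0.918 for both). Without WT replicate 2 they were -0.91 and -0.92, and no member was called. The part of array row in these differences was not tested beyond this, since 1 WT array alone shares the row of the TgproNGF#3 arrays.

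Lama4 at 12 months read -3.27, -4.26 and -3.61 in TgproNGF#3 mice and -2.92, -2.88 and -2.94 in WT mice. The 3 WT mice had nearly equal levels in either row, and all TgproNGF#3 mice were below them. The Log2 FC was -0.79 ± 0.245 (SE, limma p = 0.0129, adjusted p = 0.549, exact permutation p = 0.1), and it was -0.77 with array row as a block (p = 0.0799). Without TgproNGF#3 replicate 1 it reached -1.02 and Lama4 was called as well.

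**Figure D3:**
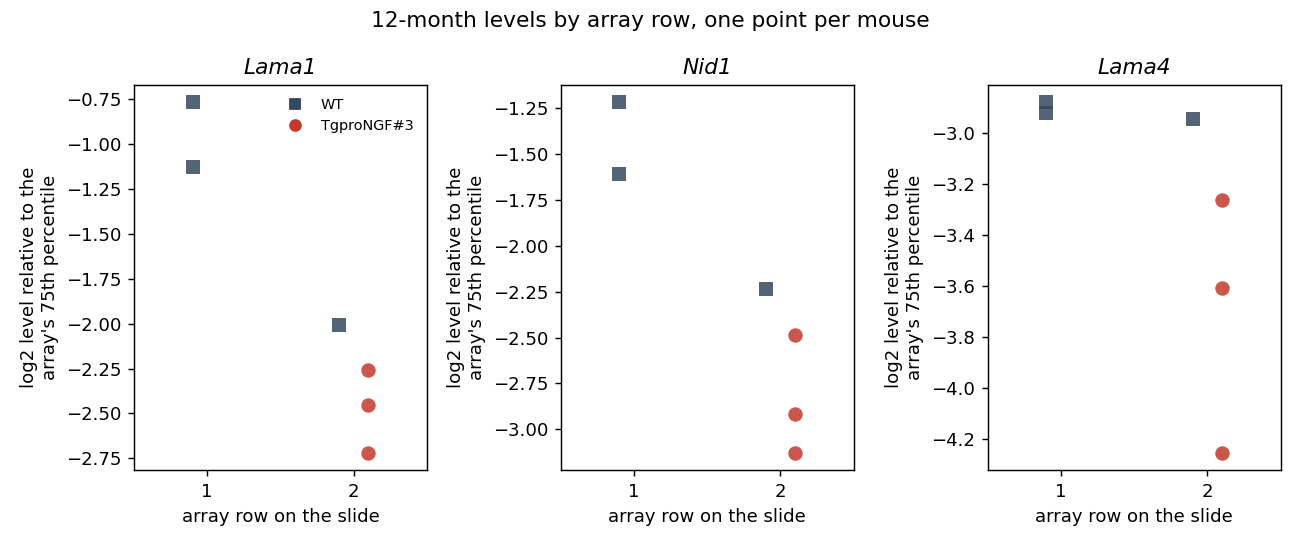
Levels of Lama1, Nid1 and Lama4 at 12 months (vertical axis, log2 relative to the array's 75th percentile) by the row of the array on its slide, 1 point per mouse. For Lama1 and Nid1 the WT mouse of row 2 (-2.01 and -2.24) lies closer to the TgproNGF#3 mice than the WT mice of row 1 do, whereas its Lama4 level (-2.94) is next to theirs.

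The other members at 12 months were lower without groups that separated. Their Log2 FC was -0.56 for Lamb2 (limma p = 0.0548, exact permutation p = 0.2), -0.47 for Hspg2 (limma p = 0.0914) and Lama5, -0.49 for Nid2, -0.28 for Lama2 and -0.12 for Lamc1. With array row as a block these values were -0.09 for Lamb2, -0.33 for Hspg2, -0.05 for Lama5, -0.26 for Nid2, -0.10 for Lama2 and -0.15 for Lamc1. Without WT replicate 2, Nid2 turned to 0.09, and Lama5 and Lamb2 came to -0.19 and -0.34. Lamb1, which encodes a beta chain, was 0.14 higher (adjusted p = 0.778), with levels of 0.82, 0.97 and 1.20 in TgproNGF#3 mice and 0.68, 1.13 and 0.77 in WT mice.

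The genotype difference of Lama4 changed between 3 and 12 months. In a fit of all 22 arrays, the difference at 12 months minus that at 3 months was -1.86 ± 0.342 (SE, adjusted p = 0.0026 in limma), from above WT in 4 of 4 TgproNGF#3 mice to below WT in 3 of 3. Of all probes 4.52% passed this test. No other member did: the change was -1.36 for Nid1 (adjusted p = 0.0717), -0.68 for Lama2 (0.154 adjusted), -0.78 for Lama1 (0.285 adjusted) and 0.42 for Hspg2 (0.645 adjusted). Nid1 and Lama2 passed when all spots entered the 75th percentile (adjusted p = 0.035 and 0.0403) and with the log2 values of the authors (adjusted p = 0.0399 and 0.0294), where the highest values over the processing tried were 0.782 and 0.482. For Lama4 the adjusted p stayed between 0.000745 and 0.013 over that processing. Between 1 and 3 months no member passed, and those nearest were Hspg2 (-1.15 ± 0.391 SE, adjusted p = 0.133, and 0.0465 without TgproNGF#3 replicate 3 of 3 months) and Lama4 (0.84 ± 0.317 SE, adjusted p = 0.188).

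Across the 6 groups the mean Lama4 level ran from -2.16 ± 0.289 (SD, n = 4) in TgproNGF#3 mice of 1 month, through -2.30 ± 0.483 in TgproNGF#3 mice of 3 months and -2.38 ± 0.0861 in WT mice of 1 month, to -2.92 ± 0.0322 (n = 3) in WT mice of 12 months, -3.36 ± 0.288 in WT mice of 3 months and -3.71 ± 0.503 in TgproNGF#3 mice of 12 months. The first 3 groups overlapped, the WT mice of 12 months stood apart from their neighbours, and the last 2 groups overlapped. For Lama1 the order was WT 1 month (-0.78), TgproNGF#3 1 month (-1.02), WT 3 months (-1.25), WT 12 months (-1.30), TgproNGF#3 3 months (-1.65) and TgproNGF#3 12 months (-2.48), and each group overlapped its neighbours. For Nid1 the TgproNGF#3 mice of 12 months (-2.84 ± 0.327) lay below the other 5 groups with no overlap. Over the 22 arrays Nid2 had the widest range, from -4.69 to -1.66, and Lamb1 the narrowest, from 0.49 to 1.74.

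The pial chain was then set against the vascular chains within each array, as the level of Lama1 minus the mean level of Lama4 and Lama5. The names pial and vascular give the sites described for these chains and were not derived from these arrays. This within-array difference removes the scaling of the array. It was lower in TgproNGF#3 than in WT mice at each age (TgproNGF#3 minus WT -0.418 for 1 month, -0.938 for 3 months and -0.545 for 12 months), and no p is given because the genes were chosen with earlier results known. At 3 months the groups did not overlap: the difference ran from -0.679 to 0.724 in TgproNGF#3 mice and from 0.765 to 1.13 in WT mice. At 1 and 12 months they overlapped. Within the 4 same-numbered pairs of arrays of 1 month the TgproNGF#3 array was lower in each (differences from -0.64 to -0.014). With array row as a block, an alternative chosen after seeing the data, the 12-month value was -0.063: WT replicate 3 read 0.25, within the range of the TgproNGF#3 mice (0.083 to 0.368). At 3 months the genotypes differed by -1.455 in Lama1 minus Lama4 and by -0.42 in Lama1 minus Lama5, while at 12 months these values were -0.383 and -0.708.

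Against Lama2, the endfoot chain, the difference separated the genotypes at all 3 ages, a pairing singled out after its values were seen. Lama1 minus Lama2 ran from -0.734 to -0.298 in TgproNGF#3 mice and from -0.228 to 0.354 in WT mice at 1 month. At 3 months the ranges were -1.291 to -0.309 and -0.18 to 0.208, and at 12 months -1.239 to -0.746 and -0.618 to 0.233. At 1 month genotype and array column cannot be told apart. The 12-month WT value of -0.618 was that of replicate 3, in the row of the TgproNGF#3 arrays, and the other WT mice read 0.233 and 0.086. With array row as a block, the 12-month Log2 FC was -0.47 for Lama1 and -0.10 for Lama2. Neither chain alone separated the genotypes at 1 or 3 months. Against Nid1 the difference was -0.713, -0.601 and -0.025 between the genotypes at 1, 3 and 12 months, since Nid1 and Lama1 were lower to nearly the same extent at 12 months.

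**Figure D4:**
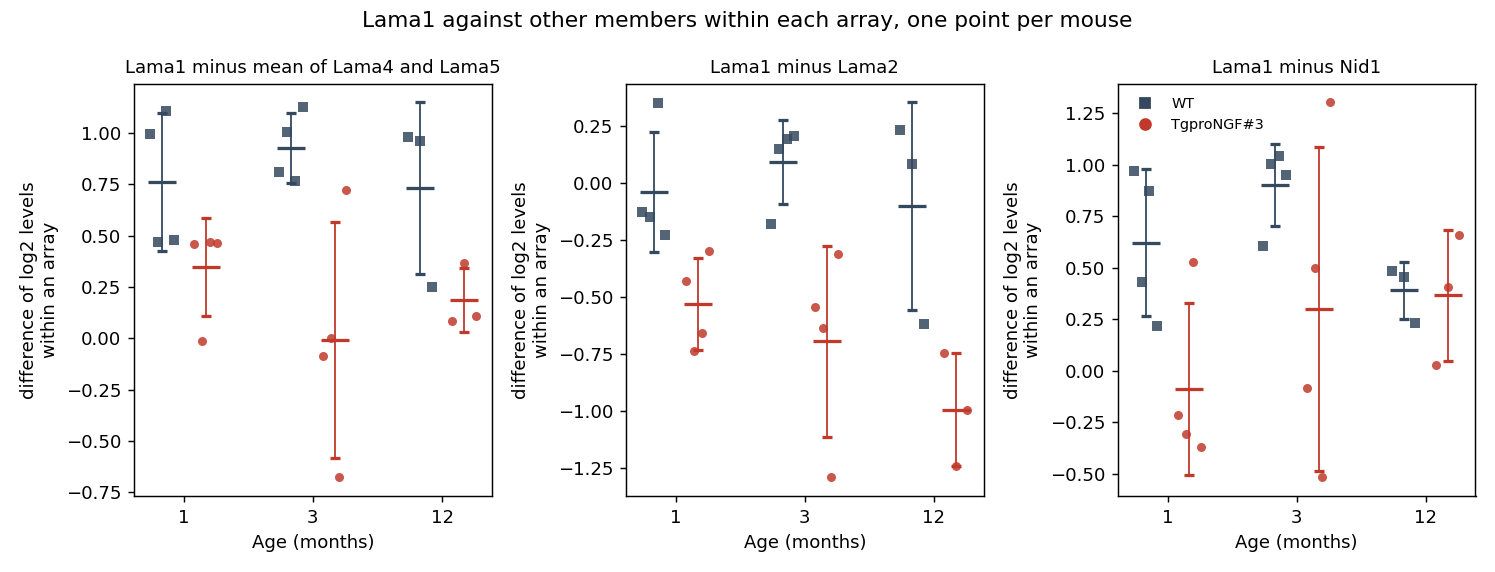
Within-array difference of Lama1 from the mean of Lama4 and Lama5, from Lama2 and from Nid1 (vertical axes, log2; horizontal axis, age in months), 1 point per mouse with the mean and SD of each group as bars. TgproNGF#3 points lie below all WT points at 3 months in the first panel and at each age in the second.

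Markers of other cell types were read on the same arrays. The leptomeningeal list (21 genes such as Slc6a13, Slc22a6 and Aldh1a2, of cells that lie against the pia) was lower in TgproNGF#3 mice for 19 of 21 genes at 1 month (median Log2 FC = -0.317), higher for 20 of 21 at 3 months (0.442) and lower for 17 of the 19 tested at 12 months (-0.826). The transporter gene Slc22a2 was called down-regulated at 1 month (Log2 FC = -1.04, adjusted p = 1). At 3 months it was called up-regulated (1.03, adjusted p = 0.0173), as was Cdh1 (1.36, adjusted p = 0.154). At 12 months 6 genes of the list were called down-regulated, Slc6a13 (-1.42), Slc22a6 (-1.27), Aldh1a2 (-1.55), Foxc2 (-1.64), Cdh1 (-1.01) and Gjb2 (-1.39), and Twist1 was called up-regulated (1.36). The mean level of the 18 markers with a value on all arrays ran from -1.68 to -0.84 in TgproNGF#3 and from -1.84 to -1.45 in WT mice at 3 months, which overlap. At 12 months it ran from -2.63 to -1.88 and from -1.67 to -1.14, with the TgproNGF#3 mice below all WT mice and WT replicate 3, which shares their row, the lowest WT mouse (-1.67). The summed linear level of the 21 genes, in units of the array's 75th percentile with dim spots at 0, was 66.3 to 102 and 63.6 to 79.4 at 3 months, and 24 to 58.8 and 73.4 to 82.6 at 12 months, but 66.1% to 88.8% of it came from Ptgds, a prostaglandin D synthase gene.

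The level of Lama4 lay closer to these markers than that of Lama1, a comparison given without a test. With group means removed, the level of Lama4 correlated by 0.811 with the mean level of the leptomeningeal markers over the 22 arrays, Lamb2 by 0.78, Hspg2 by 0.753 and Lama1 by 0.313. With levels taken relative to the WT mean of the age, which keeps the genotype differences, the values were 0.839 for Lama4, 0.639 for Lamb2, 0.119 for Hspg2 and 0.485 for Lama1. These correlations are descriptions over arrays that share their scaling. The part of leptomeningeal tissue in the Lama4, Lama1 and Nid1 differences was not tested. The defining markers were well above background on all 22 arrays: the level of Slc6a13 ranged from -2.67 to 0.88 and Slc22a6 from -3.08 to -0.38.

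The endothelial markers had medians closer to 0 at each age, and 1 of them was called at 3 months. At that age Cdh5, the cadherin of endothelial junctions, was called down-regulated (mean level -4.28 in TgproNGF#3 and -2.21 in WT mice, Log2 FC = -2.07 ± 0.381 SE, adjusted p = 0.0126). Of the endothelial genes 17, 16 and 17 were tested, with medians of 0.06, 0.063 and -0.148 at 1, 3 and 12 months. At 3 months 11 of the 16 were higher and 5 lower in TgproNGF#3 mice. Cdh5 had the largest change of the list and enters the mean level given next. At 3 months, when Lama4 was higher in TgproNGF#3 mice, the mean level of the 16 with a value on all arrays was lower in every TgproNGF#3 mouse (-1.255 to -1.031) than in every WT mouse (-1.026 to -0.959), while the summed level of the list overlapped (16 to 19.8 and 17.3 to 18.8). At 12 months the mean level ran from -1.59 to -1.10 in TgproNGF#3 and from -1.28 to -0.97 in WT mice, which overlap. The defining marker Cldn5, of endothelial tight junctions, ranged from 0.57 to 2.2 over all arrays. With group means removed, Lama4 correlated by 0.585 with the mean level of the endothelial markers and Lama5 by 0.489. With levels relative to the WT mean of the age, the values were 0.258 for Lama4 and 0.553 for Lama5. Mural markers (15 genes of pericytes and smooth muscle) were lower for 13 of 15 at 12 months, 1 of them called (Anpep, -1.47, adjusted p = 0.549), with a summed level of 5.16 to 7.45 in TgproNGF#3 and 7.53 to 10.3 in WT mice. Their mean level, over the 12 with a value on all arrays, overlapped at that age (-2.08 to -1.61 and -1.66 to -1.33). The part of endothelial and mural cells in the Lama4, Lama1 and Nid1 differences was not tested.

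The amount of choroid plexus RNA differed widely between single mice. The summed level of its 14 markers ran from 6.54 to 200 over the arrays, of which Ttr, the transthyretin gene, made up 59.9% to 87.0%, and all 14 were lower in TgproNGF#3 mice at each age, with medians of -0.446, -0.86 and -0.892 and an unadjusted p below 0.05 for 0 of them. At 12 months it was 9.18 to 137 in TgproNGF#3 and 10.5 to 200 in WT mice. With group means removed, Nid2, which encodes nidogen-2, correlated by 0.951 with the mean level of these markers, Lama5 by 0.854, Hspg2 by 0.626, Nid1 by 0.515 and Lama1 by 0.105. At 3 months, when Hspg2 was lower in TgproNGF#3 mice, the summed level was 6.54 to 140 in TgproNGF#3 mice and 75.9 to 116 in WT mice, and the mean level -3.51 to 0.83 and -0.24 to 0.53.

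Other cell types of the hippocampus were read in the same way. At 3 months 8 of 9 astrocyte markers were lower (median Log2 FC = -0.34, with Slc7a10 at -0.76, adjusted p = 0.0356), and their mean level was lower in every TgproNGF#3 mouse (1.41 to 1.77) than in every WT mouse (1.83 to 1.92). Their summed level, 53.8% to 82.7% of it from Aldoc, overlapped (78 to 92.4 and 91.2 to 136). With levels relative to the WT mean of the age, Hspg2 correlated by 0.676 with the mean level of the astrocyte markers, by 0.67 with the endothelial and by 0.549 with the choroid plexus markers. The part of choroid plexus, astrocytes and endothelial cells in the Hspg2 difference at 3 months was not tested. The medians of the neuron, microglia and oligodendrocyte lists at 3 months were -0.129, 0.06 and 0.332, and at 12 months 0.19, -0.106 and -0.148. None of their genes was called at either age, and Map2 of the neuron list had an adjusted p below 0.05 at 3 months (Log2 FC = -0.93, adjusted p = 0.00611). Of the 9 hippocampal markers 7 were lower at 3 months, with Spink8 at -0.78 (adjusted p = 0.0253).

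**Figure D5:**
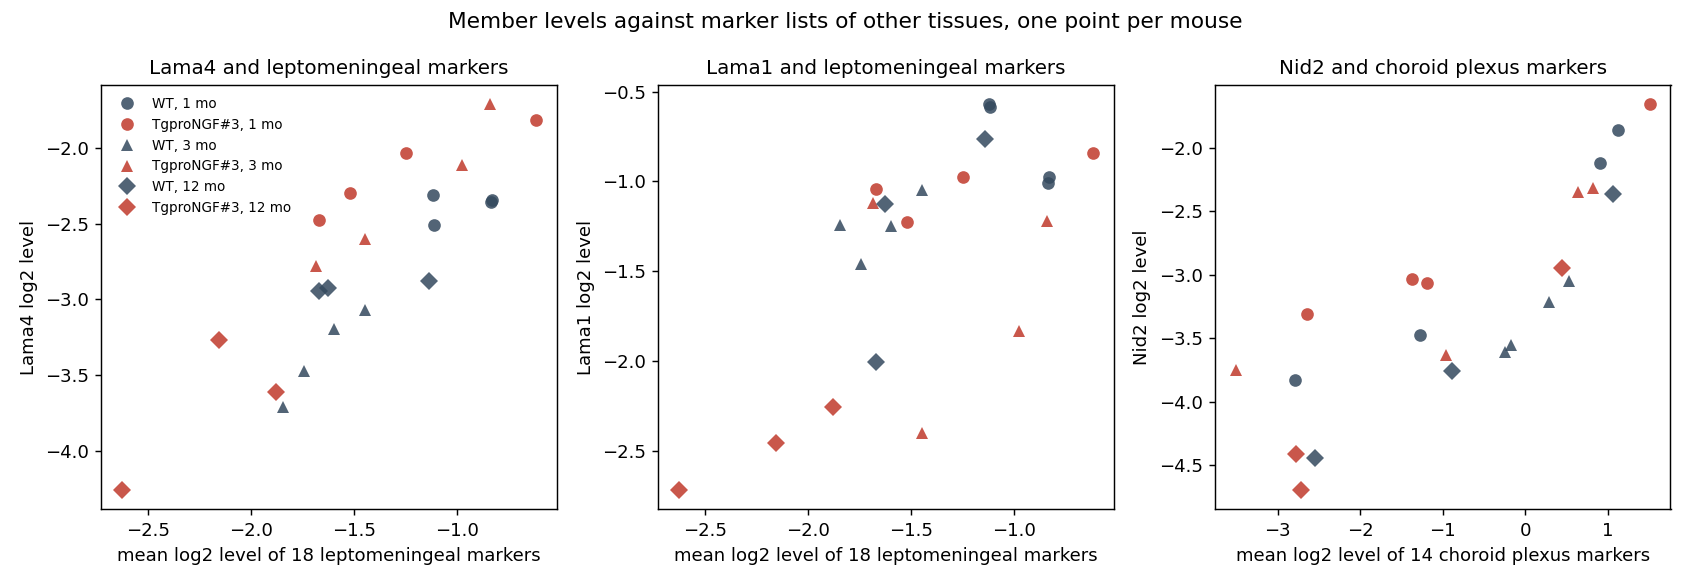
Levels of Lama4 and Lama1 against the mean level of 18 leptomeningeal markers and of Nid2 against that of 14 choroid plexus markers (both axes log2 levels), 1 point per array over 22 arrays. With group means removed, r was 0.811 for Lama4, 0.951 for Nid2 and 0.313 for Lama1, whose points spread more widely.

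Among the members themselves, with group means removed, the highest correlation over the 22 arrays was between Lama2 and Lamb1 (0.863), followed by Lama5 and Nid2 (0.815) and Nid2 and Hspg2 (0.777). Lama1 correlated by 0.396 with Nid1, 0.276 with Lama4 and -0.297 with Lamc1. Among 14507 genes compared, with levels taken relative to the WT mean of the age, the genes closest to Lama4 were Nupr1 (0.914), Cpxm1 (0.907), Serpind1 (0.906), Col9a2 (0.904) and Crabp2 (0.903), of which Nupr1 and Crabp2 are in the leptomeningeal list. Those closest to Lama1 were Ercc2 (0.858), Srarp (0.853), Akr1e1 (0.846), Plekhg2 (0.845) and Lyz1 (0.843), none of them in a marker list used here. The 2 sets of 5 genes shared none.

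The other basement membrane genes (22 genes, among them type IV collagens, agrin, further laminin chains and fibulin-1) went in both directions. At 1 month 12 were higher and 10 lower and 0 were called, and the value farthest from 0 was that of Npnt (nephronectin, Log2 FC = -0.43). At 3 months 21 were tested, 15 of them lower (median -0.188), 5 of these with an unadjusted p below 0.05. Sparc, a collagen-binding matrix protein, had a Log2 FC of -0.78 (adjusted p = 0.0619). At 12 months 12 of 20 were lower (median -0.156) and 0 were called, with Fbln1 at -0.69 (adjusted p = 0.549).

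Of 18 genes for laminin receptors and the proteins linked to them, 17 were tested at each age. At 1 month 11 were higher and 6 lower and 0 were called, with Sdc4 at -0.56 (adjusted p = 1) and Dmd, which encodes dystrophin, at 0.41. Sdc4, a heparan sulfate proteoglycan of the cell surface, was down-regulated at 3 months. Its level was -3.83, -3.50, -3.80 and -3.84 in TgproNGF#3 mice and -2.30, -2.84, -2.21 and -2.63 in WT mice, with no overlap (Log2 FC = -1.25 ± 0.175 SE, adjusted p = 0.00458). At 12 months it was called up-regulated (Log2 FC = 2.26 ± 0.646 SE, adjusted p = 0.549), with levels of 0.13, 0.76 and 1.51 in TgproNGF#3 mice and -2.08, -2.36 and 0.07 in WT mice. The high WT value was again that of replicate 3, the WT array in the row of the TgproNGF#3 arrays.

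Itgb4, which encodes the beta subunit of a laminin-binding integrin, was higher at 3 months in all TgproNGF#3 mice (-1.01, -0.63, -0.90 and -0.28) than in any WT mouse (-1.50, -1.77, -1.79 and -1.55). It passed the adjusted threshold (Log2 FC = 0.95 ± 0.181 SE, adjusted p = 0.015) and fell short of 2-fold. Sgcb, a sarcoglycan of the dystrophin complex, was lower at that age (Log2 FC = -0.65 ± 0.166 SE, adjusted p = 0.0432, no overlap). In total 9 receptor genes were higher and 8 lower at 3 months, and 5 and 12 at 12 months, where Bcam, a receptor of the Lama5 chain, stood at -0.87.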

How the data were processed

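Total RNA from the hippocampus of 22 mice was measured on 1-colour (Cy3) Agilent mouse arrays, 1 mouse per array, whose design is annotated on mm9. The authors deposited, for each spot, the intensity that Feature Extraction 10.7.3.1 computes from the scanned image after background subtraction and removal of spatial trends, without scaling between arrays. A second deposited table holds the same signal as log2 values with the 75th percentiles of the arrays aligned, and served here as an alternative. A shift of the 75th percentile moves all levels of an array together.

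Outlier spots, control spots and those not well above background were left out, the array's 75th percentile was subtracted from the log2 intensity, and spots of a probe were averaged. The brightest RefSeq probe stands for a gene. For each age, limma (version 3.58.1, run in R 4.3.3) gave two-sided moderated tests of all probes with at least 2 values per group, and changes of the genotype difference between ages in 1 fit of 22 arrays. The calling thresholds follow the study. Files were read with the data.table package, version 1.17.8. The procedure was tested on simulated data. The number of arrays limits the precision. 0 columns were left without a sample.

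The member genes, the lists of other basement membrane genes, receptors and cell markers, and the tests were chosen with earlier results of these data known. All 10 members are described. From the lists, the genes named are those called or with an adjusted p below 0.05 and the 2 with the largest change per list and age, and for likeness the 5 closest genes. Cell markers are named where called or with an adjusted p below 0.05. Others are named as examples, as defining markers or as the gene that dominates a sum. Some results under this rule are not reported here.

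The sample titles number the replicates and state no pairing. At 1 month same-numbered deviations from the group means correlated by 0.191 to 0.511 over 36103 probes, and the numbers follow the array rows. Differently numbered arrays were not compared, and the tests of members at 1 month were unpaired. At 3 and 12 months the correlations were not all above 0.1, and the numbers were taken as names only. As alternatives, dim or outlier spots were kept, detection on every array was required, the percentile was taken over all spots, arrays were aligned to the median or by quantiles, normexp (offset 50) corrected the background (planned on raw signals, run on the median signals the files hold), the values of the authors were used, all arrays shared a fit, replicate number or array row was a block, all probes of a gene were averaged, and mice were left out singly.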

Additional observations from a re-analysis of the deposited data

Results flagged for a closer look

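The genotype difference of Lama4 at 12 months minus that at 3 months was -1.86 (adjusted p = 0.0026 over all probes, all 22 arrays). The difference was above 0 at 3 months and below 0 at 12 months, and since sex and slide change with age the 3 cannot be told apart.

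In 3 of 40 groups of 4 mice, 1 mouse lay far from the other 3 (gap over range above Dixon's 95% critical value, which chance exceeds in about 1 in 20 groups). Nid2 in TgproNGF#3 replicate 2 of 1 month (level -1.66, next -3.03) had a ratio of 0.829, at the critical value. Hspg2 in the same mouse (level -0.45, next -1.29) had a ratio of 0.843. The summed choroid plexus level of that array was 112, the highest of its group. Lama5 in WT replicate 3 of 3 months (level -0.83, next -1.04) had a ratio of 0.887.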

How the results depend on the processing

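The count of called members was 0 at 1 month under every alternative tried. At 3 months 1 member was called, 0 with the normexp correction, and 0 to 2 with single mice left out (0 without TgproNGF#3 replicate 1 or 2 or WT replicate 4, 2 without TgproNGF#3 replicate 3). At 12 months 2 were called, 1 with the normexp correction (Nid1 at -0.99), 0 with array row as a block, and 0 to 3 with single mice left out (0 without WT replicate 2). The change of the genotype difference between 3 and 12 months passed for 1 member, for 3 with the 75th percentile over all spots or with the log2 values of the authors, and for 1 to 2 with single mice left out (2 without TgproNGF#3 replicate 4 of 3 months or WT replicate 3 of 12 months). Between 1 and 3 months the count was 0, and 0 to 1 with single mice left out (1 without TgproNGF#3 replicate 3 of 3 months). Where no cause is given by the setting itself, the cause was not tested.

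The replicate block left the counts of called members at 0, 1 and 2, and those of the changes between ages at 1 (3 to 12 months) and 0 (1 to 3 months). The Lama1 difference from the vascular chains stayed below 0 with each mouse left out and in the alternatives that could change it. At 1, 3 and 12 months it was -0.42, -0.528 and -0.71 against the mean of the other 9 members. After quantile normalization it was -0.392, -0.972 and -0.61. With array row as a block, an alternative chosen after seeing the data, it was -0.063 at 12 months. At 1 and 3 months each row held equal numbers of both genotypes, so the block could only return the main values, -0.418 and -0.938. With all probes of a gene averaged, Nid1 read -0.27 at 1 month and -0.53 at 3 months, but its further probes had a value on some arrays only (1 TgproNGF#3 array at 3 months), so these values mix probes and say nothing of the gene's direction. Scaling moved the median of all probes by over 0.1 with dim spots kept (0.135 at 3 months, -0.123 at 12 months), with the percentile over all spots (0.123 at 3 months) and, at 12 months, with alignment to the median (0.148) or by quantiles (0.106). Over the alternatives and the mice left out, 5 to 9 members were higher at 1 month and 4 to 8 at 3 months, and 8 to 9 were lower at 12 months.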
